A study of Mus musculus with 8 samples.

Results

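The 9 transcripts described here, Cps1, Otc, Nags, Ass1, Asl, Arg2, Oat, Aldh18a1 and Prodh, encode enzymes that make, use or feed arginine, citrulline and ornithine in the mouse. They were chosen by gene symbol out of 45706 genes counted, and all 9 passed the filter on low counts. RNA-Seq was done on crypts, small glands at the base of the gut lining, taken fresh from 4 wild type C57BL/6N mice, 2 female and 2 male. Both the small intestine (SI) and the colon (COL) of every mouse were sequenced, giving libraries SI1 to SI4 and COL1 to COL4, named after their replicate numbers. Replicate 4 of both tissues came from donor mouse 5. No allele, transgene or treatment is named for any of these mice and their age is not given. Crypts were released with EDTA. The labels do not name the segment, and the crypt isolation protocol that the study gives for organoid culture took the proximal SI and removed its villi by scraping.

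In the urea cycle, ammonia and bicarbonate are joined to carbamoyl phosphate in the mitochondrion by CPS1, which needs N-acetylglutamate, the product of NAGS. OTC then transfers this group to ornithine and forms citrulline. In liver, citrulline is carried on to arginine and urea, whereas enterocytes of the adult small intestine are known for releasing citrulline into the blood, from which the kidney makes arginine. The ornithine for it comes from arginine, through an arginase, or from pyrroline-5-carboxylate, a compound that OAT, ALDH18A1 and PRODH connect to ornithine, glutamate and proline.

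By an edgeR quasi-likelihood fit of SI against COL over all 14491 genes tested, 8 of the 9 transcripts passed an adjusted p of 0.05, where 28.4% of all genes did. The level of 7 transcripts was higher in SI (background 15.5%), and that of Ass1 was higher in COL (background 12.9%). The same 8 transcripts had no overlap between the CPM values of SI and COL libraries, which held for 33.5% of all genes tested. All 8 also differed in the same direction in all 4 mice, as 49.4% of the genes tested did in either direction. The median log2 fold change (SI minus COL) was 2.33 over the 9 transcripts and -0.09 over all genes tested. CPM is the usual depth-scaled count, here with TMM-scaled library sizes, and errors of means are SD over 4 libraries.

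**Figure D1:**
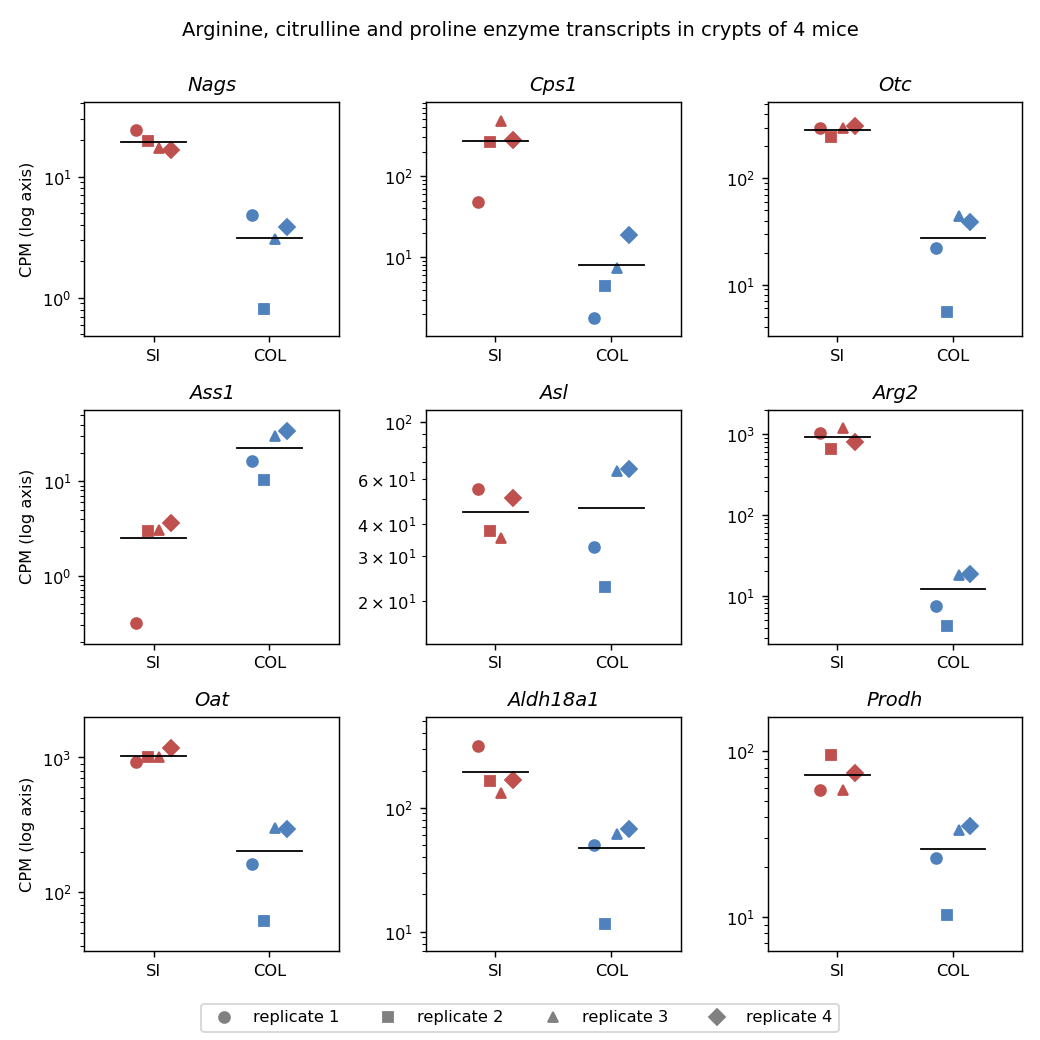
CPM on a log axis for each of the 9 transcripts in SI (red) and COL (blue) crypts, with 1 point per library, a marker shape per replicate number and a black line at the mean of each tissue. The SI and COL points separate for every transcript except Asl, Ass1 lies higher in COL, and COL2 (square) is the lowest COL point in 8 of the 9 panels.

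Total counts ranged from 15969428 to 32908060 per library. Mitochondrially encoded transcripts took 22.7% to 50.8% of the counts in SI2, SI3, COL1 and COL2 and 4.83% to 7.35% in the other libraries, so that either level occurred in both tissues. COL2 had the lowest total and the highest mitochondrial share, and it was the lowest COL library for 8 of the 9 transcripts. All 5 epithelial markers checked were tested, with a summed level of 7594 to 11952 CPM in SI and 3744 to 11867 CPM in COL, against at most 16 CPM for 7 markers of stroma and smooth muscle. Transcripts of mature SI enterocytes moved with the tissue: all 8 markers, among them Alpi, Sis and Fabp1, were higher in SI, and their summed level was 59501 to 140358 CPM in SI and 246 to 878 CPM in COL. Within SI, that sum was highest in SI1, which also had the lowest summed stem cell markers (30.7 CPM, where the other SI libraries had 217 to 310 CPM). Most of this gap was Olfm4, with 9.74 CPM in SI1 and 161 to 254 CPM in the others. Summed Paneth cell markers (564 CPM, against 1719 to 3965 CPM) and proliferation markers (105.5 CPM, against 258 to 441 CPM) were also lowest in SI1. Of the mature colonocyte markers, 4 of 6 were higher in COL and Krt20 was higher in SI. The SI enterocyte markers are genes of the SI, so their gap does not compare the share of mature cells between tissues. The part of these marker differences in the results below was not tested. In bulk crypts, fewer cells of a type and less RNA per cell cannot be told apart.

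The sequence upstream of the start site is shown for 3 genes: Otc and Oat, whose levels ran most closely together over the 8 libraries, and Ass1, which ran the other way. The RefSeq promoter table for GRCm38.p6 matched 6 of the 9 genes, not Cps1, Asl or Arg2. Each line gives the 250 bases before the RefSeq start, from 5′ to 3′ on the strand of the gene. For Ass1 the window reaches past 31470207, the gene start in the annotation used for the other results, since the RefSeq start lies further downstream. The windows lie at chrX:10252055-10252304 on the plus strand for Otc, at chr7:132576399-132576648 on the minus strand for Oat and at chr2:31470020-31470269 on the plus strand for Ass1. Capitals mark matches, on either strand, to the letters AAAGTNCA of the HNF4 motif, GATAA of the GATA motif, TATAAA of the TATA box, CCAAT of the CCAAT box and GGGCGG of the GC box.
Otc: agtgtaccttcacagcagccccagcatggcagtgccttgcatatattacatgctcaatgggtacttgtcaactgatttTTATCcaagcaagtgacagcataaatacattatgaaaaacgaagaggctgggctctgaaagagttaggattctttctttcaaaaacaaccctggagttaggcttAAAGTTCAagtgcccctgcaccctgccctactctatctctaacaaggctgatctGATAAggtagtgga
Oat: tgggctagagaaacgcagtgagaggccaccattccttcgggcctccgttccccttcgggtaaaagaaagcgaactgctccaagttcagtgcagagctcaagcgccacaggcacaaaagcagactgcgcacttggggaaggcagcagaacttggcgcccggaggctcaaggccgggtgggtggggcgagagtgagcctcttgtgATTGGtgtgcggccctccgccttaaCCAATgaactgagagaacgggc
Ass1: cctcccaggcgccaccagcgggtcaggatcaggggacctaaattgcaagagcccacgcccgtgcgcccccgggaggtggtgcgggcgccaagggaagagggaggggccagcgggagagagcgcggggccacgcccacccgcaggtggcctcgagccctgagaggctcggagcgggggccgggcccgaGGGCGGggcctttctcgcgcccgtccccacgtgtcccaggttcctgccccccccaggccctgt

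The Otc window held 1 HNF4 match and 2 GATA matches, the Oat window 2 CCAAT matches and the Ass1 window 1 GC box, with no TATA box letters in any of them. Among 32851 windows of the same length in the table, 3.53% held the HNF4 letters, 22.6% the GATA letters, 12.4% the TATA box, 33.8% the CCAAT box and 32.7% the GC box. The HNF4 letters were in none of the other 5 matched windows. A match describes the letters only and says nothing about binding in these crypts.

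Cps1 (ENSMUSG00000025991, chromosome 1 from 67123026 to 67231259, plus strand) encodes carbamoyl phosphate synthetase 1, the entry enzyme of the urea cycle. Its level was 48.5, 262, 484 and 275 CPM in SI1 to SI4 and 1.79, 4.41, 7.33 and 19.0 CPM in COL1 to COL4. The tissues did not overlap, but SI1 lay well under the other SI libraries and COL4 above the other COL libraries. Mean levels were 267 ± 178 CPM (SI) and 8.14 ± 7.60 CPM (COL, SD, n = 4), with a log2 fold change of 5.03 (SE 0.85, edgeR adjusted p = 0.00108), which is a fold of 32.7. With a library left out, the log2 fold change ranged from 4.59 to 5.89, the highest without COL4, which had the highest Cps1 level in COL.

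Otc (ENSMUSG00000031173, chromosome X from 10252305 to 10321024, plus strand) encodes ornithine transcarbamylase, which forms citrulline. It had 297, 244, 299 and 308 CPM in SI1 to SI4 and 22.1, 5.47, 44.3 and 38.9 CPM in COL1 to COL4. The SI libraries lay close together, and COL2 was the lowest library. Between the means of 287 ± 29.0 and 27.7 ± 17.6 CPM (SD, n = 4), the fold was 10.3, a log2 fold change of 3.37 (SE 0.55, edgeR adjusted p = 0.000861).

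Nags (ENSMUSG00000048217, chromosome 11 from 102145513 to 102149477, plus strand) encodes the synthase of N-acetylglutamate, the activator of CPS1. It had 24.3, 19.5, 17.2 and 16.6 CPM in SI1 to SI4 and 4.78, 0.808, 3.08 and 3.85 CPM in COL1 to COL4. Every SI library exceeded every COL library, and the value of COL2 rested on 13 counts. The log2 fold change was 2.62 (SE 0.46, edgeR adjusted p = 0.00139), a fold of 6.14. The antisense gene Gm11586 overlaps Nags and holds 14.9% of the 50-base stretches of its longest transcript. It received at most 2 counts in any library. The use of strand in counting is not given in the sources used here, so reads of the overlap cannot be assigned to either gene.

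The 3 transcripts of mitochondrial citrulline synthesis were thus all higher in SI, with folds from 6.14 for Nags to 32.7 for Cps1. The liver shares these enzymes. Of 5 hepatocyte markers, Alb had a mean of 0.563 CPM in SI crypts and of 0.572 CPM in COL crypts, and Serpina1a was at 0 in every library. Ttr was higher in COL (1.71 CPM in SI and 14.9 CPM in COL, edgeR adjusted p = 0.00029). Apoh did not pass (0.772 CPM in SI and 0.179 CPM in COL). Cyp2e1 was not tested, with 1.10 CPM in SI and 0 in COL. The sum of the 5 markers was 2.94 to 5.17 CPM in SI and 7.13 to 22.0 CPM in COL. A part of liver RNA in these levels was not tested.

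Ass1 (ENSMUSG00000076441, chromosome 2 from 31470207 to 31520672, plus strand) encodes argininosuccinate synthase, which takes citrulline onward towards arginine. It had 0.317, 2.96, 3.04 and 3.62 CPM in SI1 to SI4 and 16.3, 10.4, 30.4 and 34.0 CPM in COL1 to COL4. All SI libraries were under all COL libraries, and SI1 was the lowest, with 7 counts. SI averaged 2.48 ± 1.47 CPM and COL averaged 22.8 ± 11.2 CPM (SD, n = 4), a log2 fold change of -3.20 (SE 0.63, edgeR adjusted p = 0.00297), which is 9.20-fold higher in COL. Of the 50-base stretches of the longest Ass1 transcript, 55.3% also occur in the processed pseudogene Gm5424. Reads from these stretches could have been left out or counted there. Gm5424 received 1 to 3 counts in SI and 5 to 82 counts in COL libraries, so its counts were also higher in COL.

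Asl (ENSMUSG00000025533, chromosome 5 from 130011258 to 130029247, minus strand) encodes argininosuccinate lyase, the next enzyme, which releases arginine. It had 55.0, 37.6, 35.4 and 50.4 CPM in SI1 to SI4 and 32.5, 22.8, 64.1 and 65.7 CPM in COL1 to COL4. COL libraries lay on both sides of the SI libraries, and 2 of the 4 mice had the higher value in SI. The means were 44.6 ± 9.57 and 46.3 ± 21.9 CPM (SD, n = 4), with a log2 fold change of -0.05 (SE 0.35, edgeR adjusted p = 0.925). With a library left out, it ranged from -0.24 to 0.17, so its sign depended on which libraries were included. Asl was the only 1 of the 9 transcripts that did not pass the test.

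Arg2 (ENSMUSG00000021125, chromosome 12 from 79130777 to 79156301, plus strand) encodes the mitochondrial arginase, which splits arginine into ornithine and urea. It had 1040, 655, 1198 and 801 CPM in SI1 to SI4 and 7.45, 4.23, 18 and 18.4 CPM in COL1 to COL4. The lowest SI library was far above the highest COL library. SI averaged 923 ± 242 CPM and COL averaged 12.0 ± 7.26 CPM (SD, n = 4), and the log2 fold change of 6.26 (SE 0.60, edgeR adjusted p = 2.96e-05), a fold of 76.6, was the largest among the 9. Other genes hold 21.2% of the 50-base stretches of its longest transcript, mostly Vti1b, a protein-coding gene on the opposite strand that shares 285 exon bases with it. The antisense gene Gm48780 shares 116 exon bases. Vti1b had 292 to 2789 counts per library, against 10833 to 23626 for Arg2 in SI and 68 to 877 in COL. As the use of strand is not given, reads of the overlap cannot be assigned to either gene. This could weigh most in COL libraries, where the Arg2 count was low.

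Oat (ENSMUSG00000030934, chromosome 7 from 132557478 to 132576398, minus strand) encodes ornithine aminotransferase, which links ornithine with pyrroline-5-carboxylate. Its level was 918, 1009, 999.7 and 1172 CPM in SI1 to SI4 and 161, 60.5, 299 and 294 CPM in COL1 to COL4. SI libraries varied little and COL2 stood lowest. SI averaged 1025 ± 107 CPM and COL averaged 204 ± 115 CPM (SD, n = 4), a fold of 5.04 and a log2 fold change of 2.33 (SE 0.49, edgeR adjusted p = 0.00452).

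Aldh18a1 (ENSMUSG00000025007, chromosome 19 from 40550257 to 40588463, minus strand) encodes the enzyme that makes pyrroline-5-carboxylate from glutamate. It had 318, 163, 132 and 168 CPM in SI1 to SI4 and 49.9, 11.6, 61.9 and 67.1 CPM in COL1 to COL4. SI1 was the highest library, and the tissues did not overlap. The log2 fold change was 2.03 (SE 0.50, edgeR adjusted p = 0.0108), a fold of 4.09. Prodh (ENSMUSG00000003526, chromosome 16 from 18060357 to 18090203, minus strand) encodes proline dehydrogenase, which makes the same compound from proline. It had 58.8, 94.7, 58.8 and 74.3 CPM in SI1 to SI4 and 22.9, 10.4, 33.8 and 35.6 CPM in COL1 to COL4. Again no COL library reached an SI library, and the log2 fold change was 1.48 (SE 0.37, edgeR adjusted p = 0.0118), a fold of 2.78.

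Calls of Aldh18a1 and Prodh depended on scaling. By library size alone, the median gene moved to a log2 fold change of -0.82, and Aldh18a1 and Prodh had log2 fold changes of 1.19 and 0.68 with edgeR adjusted p-values of 0.0919 and 0.211. Measured from that median, they stood at 2.01 and 1.5. The other 6 transcripts that passed kept their call and direction under it. Neither was past the threshold when tested against a log2 change of 1 (edgeR adjusted p = 0.0628 and 0.175), while the other 6 were.

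**Figure D2:**
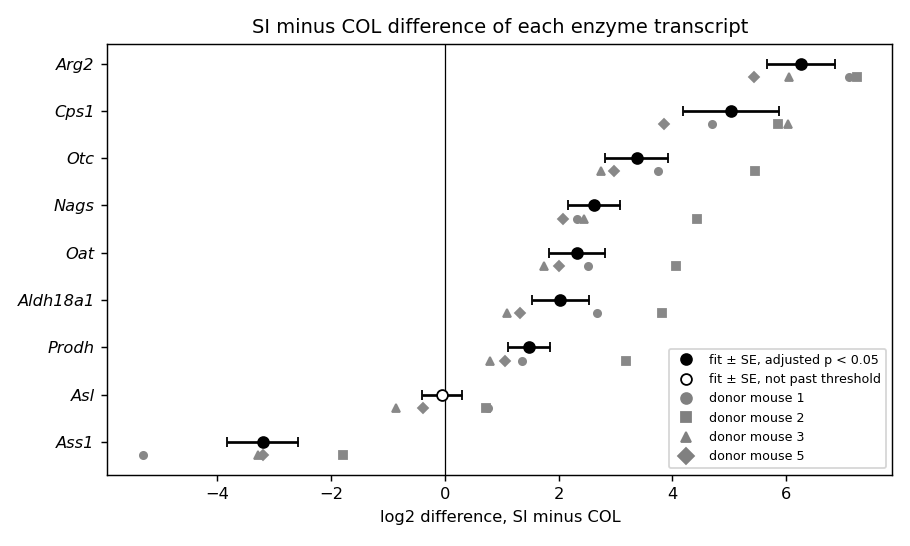
Log2 difference between SI and COL crypts for each transcript, where the circle with its bar is the edgeR estimate with its SE and the grey markers below it are the differences within the 4 donor mice, in log2 of CPM plus 0.1. Filled circles passed the test, the values fall from 6.26 for Arg2 to -3.20 for Ass1, and donor mouse 2 gave the largest difference for Arg2, Otc, Nags, Oat, Aldh18a1 and Prodh.

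Within single mice, the log2 difference of Arg2 lay between 5.44 and 7.24, that of Cps1 between 3.85 and 6.03 and that of Otc between 2.75 and 5.45. For Ass1 it lay between -5.30 and -1.78, and for Prodh between 0.80 and 3.18. With the donor mouse as a replicate block, the same 8 transcripts passed, with edgeR adjusted p-values from 8.76e-05 for Arg2 to 0.0208 for Prodh (background 28.1% of genes). All 8 differences had the same direction within the 4 libraries of 22.7% or more mitochondrial counts and within the other 4. The former were SI2 and SI3 with COL1 and COL2, and the latter SI1 and SI4 with COL3 and COL4. Each set thus compares few libraries, partly from different mice. The share of all genes with the same direction in both sets was not computed, so this count has no background. SI1, the lowest SI library for Cps1 and Ass1, was in the latter. Cps1 differed by 6.93 among the former and by 3.28 among the latter, and Ass1 by -2.08 and -4.69. For Arg2 the values were 7.28 and 5.64, and for Prodh 2.27 and 0.93. Without SI1 and COL2 all 8 passed, where 2058 genes passed as higher in SI and 1985 as higher in COL out of 14810 tested. The log2 fold change of Aldh18a1 then fell to 1.38, from 2.03. That of Ass1 was then -3.04 and that of Cps1 5.21.

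Levels of different genes were compared after division by exon length, the bases of all annotated exons of a gene. This length exceeds the longest transcript unevenly, with 4831 against 2413 bases for Asl and 2414 against 1696 for Ass1. For Arg2 both were 1428 bases. The order of genes with close levels thus depends on the length used. By exon length, Arg2 and Oat were the most abundant of the 9 transcripts in SI. Arg2 had 647 ± 170 and Oat 434 ± 45.1 CPM per kilobase of exon (SD, n = 4), and Arg2 exceeded Oat in all 4 SI libraries although the ranges over libraries overlapped. Together they made up 83.7% to 85.8% of the summed level of the 9 transcripts. Otc (67.6 ± 6.83), Cps1 (48.1 ± 32.0) and Aldh18a1 (47.9 ± 20.4 CPM per kilobase) followed, with overlapping ranges between neighbours. A step below came Asl (9.23 ± 1.98), Prodh (9.19 ± 2.18) and Nags (6.84 ± 1.22), which also overlapped. Ass1 was lowest in SI, at 1.03 ± 0.610 CPM per kilobase, under every other transcript in all 4 libraries.

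In COL the order per kilobase was another, with the same limit for genes with close levels. In either tissue, the levels and shares of Ass1 and Arg2 also carry the limits given above for stretches shared with Gm5424 and Vti1b. Oat led with 86.2 ± 48.6 CPM per kilobase and made up 58.1% to 64.1% of the sum. Aldh18a1 (11.7 ± 6.16), Asl (9.58 ± 4.53), Ass1 (9.43 ± 4.65), Arg2 (8.42 ± 5.08) and Otc (6.53 ± 4.14 CPM per kilobase) had ranges that overlapped between neighbours. Prodh (3.29 ± 1.49), Cps1 (1.46 ± 1.37) and Nags (1.10 ± 0.598) were lowest. Arg2 thus took 43.3% to 56.9% of the summed level in SI and 4.77% to 6.70% in COL, whereas Ass1 took 0.0101% to 0.120% in SI and 6.18% to 9.74% in COL.

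**Figure D3:**
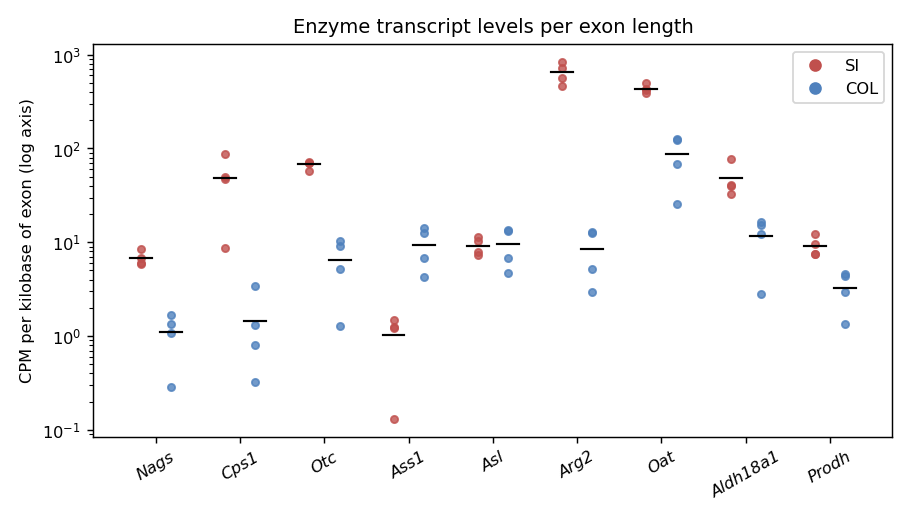
CPM per kilobase of exon on a log axis for the 9 transcripts, with 1 point per library and a black line at each tissue's mean. In SI (red) Arg2 and Oat lie above all others and Ass1 lies lowest, while in COL (blue) Oat leads and Arg2, Ass1 and Asl lie close to each other.

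Ratios between 2 transcripts of the same library do not depend on how libraries are scaled. For 6 pairs, log2 ratios of counts were compared between tissues by two-sided exact permutation tests over all 70 assignments. The Otc:Ass1 ratio, of the enzyme that forms citrulline to the enzyme that uses it, was 9.77, 6.35, 6.61 and 6.40 in SI1 to SI4 and 0.44, -0.92, 0.54 and 0.20 in COL1 to COL4, a difference of 7.22. The Arg2:Ass1 ratio averaged 8.94 ± 1.81 over SI and -1.01 ± 0.24 over COL libraries (SD, n = 4). The Ass1:Asl ratio averaged -4.58 ± 1.84 over SI and -1.04 ± 0.08 over COL libraries, so that the pair that turns citrulline into arginine kept nearly the same ratio in the 4 COL libraries. For these 3 ratios the tissues did not overlap, and each exact test gave the smallest p it can give, 0.0286, but adjusted over the 6 ratios it was 0.0571, so that 0 of 6 passed. Without SI1, all 3 differences kept their direction and were again at the smallest p of the exact permutation test. Their adjusted p was then 0.0429 only because Oat:Aldh18a1 also reached that smallest p, so that 4 ratios shared it.

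The other 3 ratios overlapped between tissues. The Cps1:Otc ratio was -2.61, 0.10, 0.70 and -0.16 in SI1 to SI4 and -3.61, -0.31, -2.59 and -1.03 in COL1 to COL4, higher in SI in all 4 mice (exact permutation test, p = 0.2, adjusted p = 0.274). Oat:Aldh18a1 differed by 0.35 (exact permutation test, adjusted p = 0.371) and Aldh18a1:Prodh by 0.62 (adjusted p = 0.274 from the same exact test). Without SI1, Oat:Aldh18a1 differed by 0.67 with an adjusted p of 0.0429 in the exact test.

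**Figure D4:**
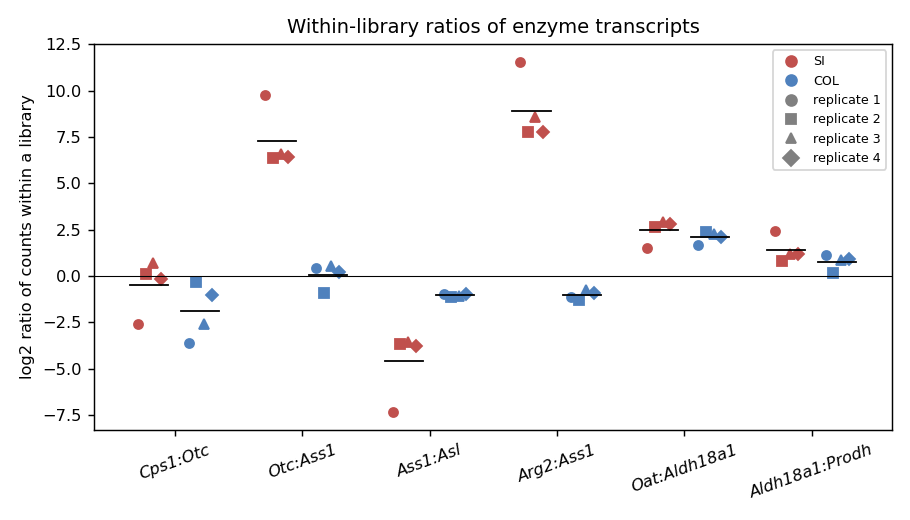
Log2 ratio of counts, plus 0.5, for 6 pairs of transcripts within each library, with SI in red, COL in blue, a marker shape per replicate number and a black line at the mean. SI and COL separate for Otc:Ass1, Ass1:Asl and Arg2:Ass1, and SI1 (circle) lies apart from the other SI libraries in these 3.

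Between female and male mice, 0 of the 9 transcripts passed an edgeR fit with tissue as a covariate (background 0.0345% of genes), 0 had an unadjusted p under 0.05 (background 5.51%), and limma-voom with the donor mouse as a random block gave 0 as well. Otc, which is X-linked, had a log2 difference of 0.22 between female and male mice (SE 0.51, edgeR adjusted p = 0.936). Its means were 302 CPM in female and 271 CPM in male SI crypts. For the tissue by sex interaction, 0 of 9 passed and 0 had an unadjusted p under 0.05 by edgeR (backgrounds 0% and 5.25% of genes). Cps1 had the largest interaction, -2.03 (SE 1.41, edgeR adjusted p = 0.925). Both edgeR fits took the libraries of a mouse as independent, without a donor term. With 2 mice per sex, their errors leave large differences undetected.

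Over the 8 libraries, the genes of at least moderate level (mean log2 CPM of 5 or more) whose log2 CPM ran most like each transcript were looked up. Pearson's r describes the pattern only, since all points share the tissue split and the libraries. Otc and Oat were each other's closest match out of 3646 genes (r = 0.996), followed by March8 for Otc and Nomo1 for Oat. Prodh ran most like Oat (r = 0.977) and Nomo1. Arg2 ran with Dnaja1 (r = 0.998), Cps1 with Slc35g1 (r = 0.982) and Nampt, Nags with Lrrc59 (r = 0.984) and Reg3g, and Aldh18a1 with Pomp (r = 0.989) and Cox19. Ass1 ran with Ivd (r = 0.990) and Plp2, and Asl with Grn (r = 0.995) and Leprot.

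A list of 59 further genes of arginine, proline, glutamate, polyamine and cationic amino acid handling was examined in the same fit. Of these, 53 were tested, 17 passed with higher levels in SI (background 15.5%) and 14 with higher levels in COL (background 12.9%), and their median log2 fold change was -0.23. With the donor mouse as a replicate block, Oaz2 and Smox were also higher in COL. By library size alone, 23 were higher in COL, where 33% of all genes tested were.

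Of 8 neighbours in arginine and proline metabolism, 3 were higher in SI and 4 in COL. Pycr1, a reductase that makes proline, was higher in COL. It had 0.862 to 2.48 CPM in SI and 14.7 to 31.6 CPM in COL, a log2 fold change of -3.91 (SE 0.41, edgeR adjusted p = 5.27e-05). Pycr3, a reductase of the same family (Pycrl in the annotation), was at 83.5 to 121 CPM in SI and 34.4 to 89.0 CPM in COL, and did not pass (log2 fold change 0.57, edgeR adjusted p = 0.235). Aldh4a1, which oxidizes pyrroline-5-carboxylate to glutamate, was higher in SI, with 97.5 to 242 CPM against 8.33 to 18.5 CPM in COL (log2 fold change 3.73, edgeR adjusted p = 5.2e-05). Pepd, a peptidase that frees proline from dipeptides, was higher in SI by 5.75 on the log2 scale. Prodh2, a relative of Prodh known for hydroxyproline, had 17 to 53 counts in SI libraries and 1 count in all COL libraries together. Arg1, the cytosolic arginase of liver and macrophages, was higher in COL (log2 fold change -2.39, edgeR adjusted p = 0.0363) on 2 to 15 counts per SI and 9 to 127 per COL library, and lost the call in 6 of the 8 fits that left out a library. P4ha1, a collagen prolyl hydroxylase subunit, was also higher in COL (log2 fold change -1.45).

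**Figure D5:**
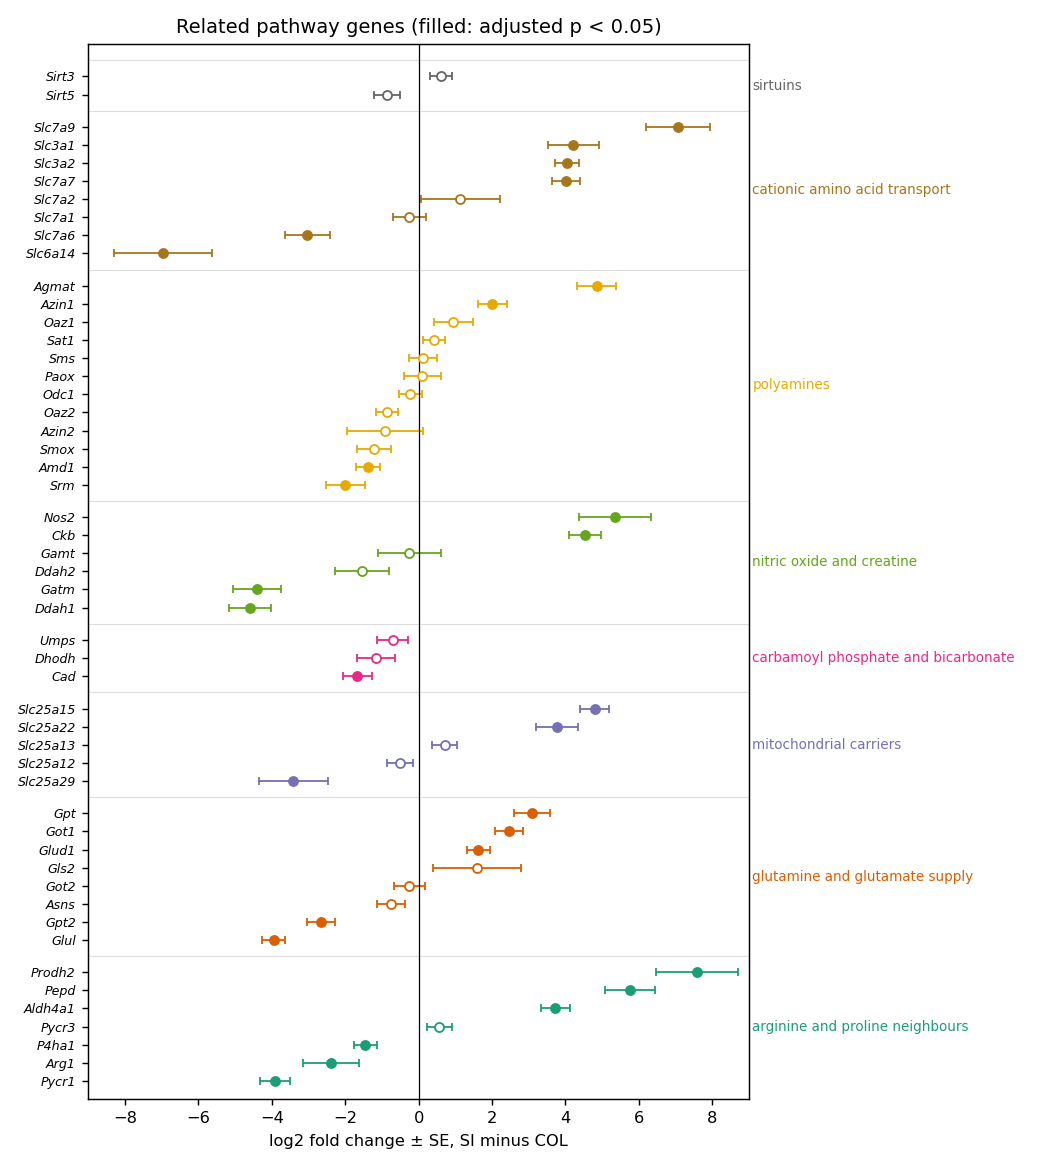
Log2 fold change with SE, SI minus COL, for the further genes tested, except those not reported here, grouped by their role. Filled circles passed an edgeR adjusted p of 0.05: Slc25a15, Aldh4a1 and Slc7a9 lie to the right (higher in SI), and Pycr1, Glul and Slc6a14 to the left. The Prodh2 estimate rests on 1 count in COL.

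Of 9 genes of glutamine and glutamate supply, 4 were higher in SI and 2 in COL. Glul, which makes glutamine, was higher in COL with 6.75 to 10.7 CPM in SI against 101 to 178 CPM (log2 fold change -3.95, edgeR adjusted p = 1.29e-05). Glud1, Got1 and Gpt were higher in SI (log2 fold changes 1.63, 2.47 and 3.09), and Gpt2, the mitochondrial alanine aminotransferase, was higher in COL (-2.66). Glud1 did not pass with scaling by library size alone.

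Of 5 mitochondrial carriers tested, Slc25a15, the ornithine and citrulline exchanger that supplies OTC, was higher in SI. It had 447, 279, 248 and 419 CPM in SI1 to SI4 and 13.4, 7.02, 15.3 and 14.1 CPM in COL1 to COL4, a log2 fold change of 4.80 (SE 0.40, edgeR adjusted p = 1.52e-05). Slc25a22, a glutamate carrier, was also higher in SI (3.77), and Slc25a29, a carrier of basic amino acids, was higher in COL (-3.41). Slc25a29 had at most 0.406 CPM in SI and lost the call without COL1 (edgeR adjusted p = 0.0712). Cad, which makes and uses carbamoyl phosphate at the start of pyrimidine synthesis, was higher in COL (log2 fold change -1.67, edgeR adjusted p = 0.00808). Dhodh and Umps, which act later in that synthesis, were not past the threshold.

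Among 6 tested genes of nitric oxide and creatine metabolism, Nos2, the inducible nitric oxide synthase, was higher in SI with 182, 129, 13.9 and 86.7 CPM in SI1 to SI4 and 0.176 to 5.84 CPM in COL (log2 fold change 5.36, edgeR adjusted p = 0.00182). The summed level of 7 immune markers was 28.7 to 85.2 CPM in SI and 10.5 to 32.5 CPM in COL, with overlapping ranges. Of these markers, Cd3e was higher in SI (18.2 CPM against 4.37 CPM, edgeR adjusted p = 0.0403), 3 did not pass the threshold and 3 were not tested. The macrophage markers Csf1r, Adgre1 and C1qa had means of 0.784, 0.583 and 0.510 CPM in SI and of 0.366, 0.118 and 0.464 CPM in COL. The part of immune cells in the Nos2 difference was not tested. Ckb, a creatine kinase, was higher in SI (4.53). Ddah1, which breaks down methylated arginine, and Gatm, which starts creatine synthesis from arginine, were higher in COL (-4.60 and -4.40). Of 12 polyamine genes, Azin1 (2.01) and Agmat (4.85) were higher in SI and Srm (-2.0) and Amd1 (-1.37) in COL, while Odc1, which decarboxylates ornithine, had a log2 fold change of -0.23 (SE 0.31, edgeR adjusted p = 0.62). Srm lost the call without COL1 (edgeR adjusted p = 0.0696).

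Of 8 tested transporters of cationic amino acids, the apical pair Slc7a9 and Slc3a1 and the basolateral pair Slc7a7 and Slc3a2 had higher levels in SI (log2 fold changes of 7.07, 4.22, 4.02 and 4.05). Slc6a14, a transporter of neutral and cationic amino acids, was higher in COL, with 0 to 11.8 CPM in SI and 145 to 934 CPM in COL (log2 fold change -6.96, edgeR adjusted p = 0.00247), as was Slc7a6 (-3.03). The sirtuins Sirt3 and Sirt5, known to act on urea cycle enzymes, were not past the threshold.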

How the data were processed

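RNA-Seq libraries of SI and COL crypts were grouped by the sample labels. The authors deposited raw counts per Ensembl gene, made with STAR 2.5.2b on mm10 from read pairs that Trimmomatic 0.36 had cleaned. The processing notes of the submitters list mm9 beside mm10, and the methods name mm10 only. The annotation release and the use of strand are not given in the sources used here. Symbols, coordinates and exon lengths were those of GENCODE vM21 on GRCm38 (mm10), which matched 45143 of the 45706 identifiers.

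Counts were fitted with edgeR 4.0.16 in R 4.3.3 (TMM, filterByExpr with a minimum of 10 counts and 15 in total, glmQLFit, tissue as the only term), with Benjamini-Hochberg adjustment over the 14491 genes kept. The methods name limma without a donor term. Limma 3.58.1 (voom), DESeq2 1.42.0 and the donor block were alternatives. Pairing follows from the donor mice in the labels. For mice 1, 2, 3 and 5, deviations of both libraries of a mouse from their tissue means had correlations of -0.24, 0.39, -0.08 and 0.33. Scripts were tested on simulated data.

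The transcripts, lists, motifs and tests were chosen with earlier results of these data known. Named were the 9 transcripts, the listed genes past the threshold, the 2 genes most like each transcript, and, after their values were seen, Pycr3, Odc1, Oaz2, Smox, Dhodh, Umps, Sirt3 and Sirt5. A few genes that fall under this rule are not reported here. Of the marker lists, 5 of 6 for Paneth cells and 1 of 5 for stem cells were higher in SI, 2 of 5 for goblet cells in COL, and 1 of 5 for enteroendocrine cells in either tissue. Of the others, 1 of 7 immune (Cd3e) and 1 of 5 epithelial markers were higher in SI, and 1 of 7 stromal, 1 of 5 hepatocyte (Ttr) and 1 of 5 acinar markers (Cela1) in COL, with 0 of 6 for proliferating and 0 of 3 for tuft cells by edgeR. P-values of SI against COL measure the spread between the libraries of 4 mice per tissue, which includes any difference in preparation. Those for sex rest on 2 mice per sex, and the exact permutation test did not use the pairing by mouse. Depth limits only transcripts of few counts, such as Ass1 in SI1.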

Additional observations from a re-analysis of the deposited data

Results flagged for a closer look

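In groups of 4 libraries, 9 of 92 groups examined held a library that stood apart by Dixon's criterion. Chance alone gives this in about 1 of 20 groups that are independent and normally distributed. These groups share libraries and genes and CPM can be skewed, so the number flagged cannot be set against that rate. The Otc:Ass1 log2 ratio in SI1 was 9.77 and the Ass1:Asl ratio there was -7.34, both resting on the 7 Ass1 counts of SI1. Amd1 in SI1 was at 4.89 CPM. Got1 in SI2 was at 197 CPM, lower than in the other SI libraries. Slc7a6 at 2.84 CPM and Slc6a14 at 11.8 CPM were high in SI4. In COL2, Ckb was at 15.2 CPM, lower than in the other COL libraries, and P4ha1 at 9.20 CPM, higher than there. Prodh2 in COL3 was at 0.0267 CPM, which is 1 count where the other COL libraries had 0.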

How the results depend on the processing

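All 8 calls among the 9 enzyme transcripts kept their direction in every alternative in which they were tested, and 6 of the 8 kept the call too. Exceptions were Aldh18a1 and Prodh with scaling by library size alone and in the test against a log2 change of 1. With at least 10 counts required in every library, Ass1 was not tested, which left 0 higher in COL. The sign of Asl reversed with limma-voom (0.09), with limma-voom and the replicate block (0.07), with the donor mouse as a replicate block in edgeR (0.06), and in fits without a library, from -0.24 to 0.17. The block changed no call among the 9. Pycr3 turned to -0.22 with library size alone, and Odc1 to 0.034 without COL1, with a range of -0.44 to 0.034 over the libraries left out, and it passed the threshold in COL with library size alone (-1.03, edgeR adjusted p = 0.0384).

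Library size alone put 1115 genes on the SI side and 4788 on the COL side (23 of them further pathway genes), against 2253 and 1863 with TMM. The test against a log2 change of 1 left 2072 genes, 1089 for SI and 983 for COL, with 9 of the further genes in COL. The number of ratios past the threshold ranged from 0 to 4 with a library left out, with 4 without SI1. The exact sign-flip test over the donor mice cannot go below 0.125. Leaving out SI1 and COL2 together was added after the data had been examined.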
